A study of Mus musculus with 16 samples.

Results

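The synaptic vesicle and SNARE genes described here are 10 genes of transmitter release: Vamp2, Snap25, Stx1a, Syt1, Cplx1, Cplx2, Sv2b, Slc17a6, Syp and Syn1. The genes were chosen with earlier results of these data known. Every probe carrying the symbol of 1 of these genes on the Illumina Mouse Ref-8 v2.0 array was taken, without regard to its values, which gave 11 of the 25697 probes on the table. Syn1 had 2 probes and each other gene had 1. Of these, 10 probes of 9 genes were bright enough to be tested, among 15086 probes of 11151 genes in all. The single Snap25 probe (ILMN_2741123) was not above the intensity cutoff of 16 on any of the 16 arrays, with a range of -14.2 to 9.94 and a median of -5.33, so it has no measured difference here.

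The cells were dorsal root ganglion cultures of CD-1 mouse embryos at embryonic day 13, the sensory ganglia beside the spinal cord, plated as spots from which axons grow. On day 4 in vitro they received lentivirus carrying a MISSION control shRNA (control), MISSION shRNAs for HIF-1α (knockdown), or human HIF-1α in the FUGW vector (overexpression). RNA was taken on day 7 from uninjured cultures (0 h), or 3 h or 12 h after the axons were cut. There were 6 control, 6 knockdown and 4 overexpression arrays, in 9 groups of 2 arrays each, except overexpression at 0 h and at 12 h with 1 array each. The FUGW vector had no empty-vector group among these arrays, so the vector and its insert cannot be told apart, and neither can a construct and the batch of virus or culture it came with. The labels do not state whether replicate arrays are independent cultures or animals. The p-values therefore rest on the array-to-array spread, part or all of which may be technical.

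Synaptic vesicles are loaded with transmitter by transporters and fuse with the plasma membrane when SNARE proteins of the vesicle and of the target membrane zip together. Synaptotagmin is the calcium sensor of this step, and complexins bind the assembled SNARE bundle. Most sensory neurons of the dorsal root ganglion release glutamate at their central endings, and embryonic sensory neurons in culture use related membrane fusion machinery while their axons extend.

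The largest differences among the members were those of Vamp2 and Slc17a6 in knockdown and of Sv2b and Cplx2 in overexpression. In knockdown cultures Vamp2, the vesicle SNARE, fell to 0.116 times its control intensity, and Slc17a6, the vesicular glutamate transporter VGLUT2, fell to 0.340 times, while Syt1 rose to 1.59 times. In overexpression cultures the vesicle protein Sv2b fell to 0.189 times its control intensity, Cplx2 to 0.246 times and Cplx1 to 0.564 times, while Vamp2 and Slc17a6 rose to 1.28 and 1.21 times. Stx1a and Syp were called lower in both, and cutting the axons moved no member past the test. In these bulk samples, fewer cells of a type and less RNA per cell cannot be told apart.

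Intensities below are the deposited linear values. Differences are log2 differences from 1 limma fit to all 16 arrays after background correction with an offset of 50, averaged over the 3 times with equal weight, with a 95% interval. Calls were made at an adjusted p (Benjamini-Hochberg, over all 15086 probes) under 0.05. The arrays resembled each other most within a construct: across probes, 2 arrays of 1 construct correlated at 0.991 to 0.995, and 2 arrays that differed in construct at 0.917 to 0.953. The mouse Hif1a probe (ILMN_2852034) was dim. It was above 16 on 6 of 6 control arrays (21.3 to 42.7), on 0 of 6 knockdown arrays (-7.16 to 1.40) and on 0 of 4 overexpression arrays (-5.20 to 5.22), with adjusted p = 2.89e-07 and 1.25e-05 for the 2 comparisons with control. Whether this mouse probe reads the human HIF-1α transcript was not tested.

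**Figure D1:**
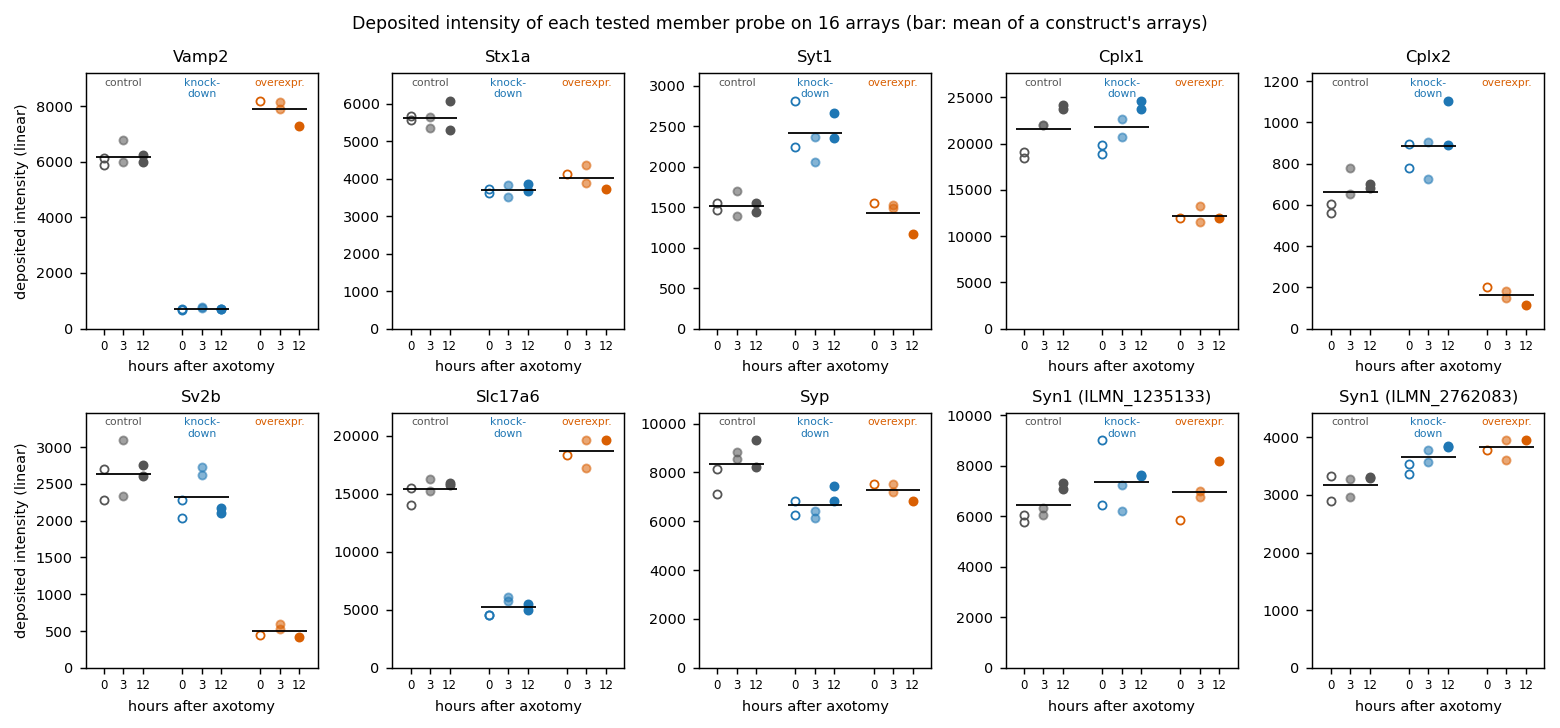
Deposited linear intensity of the 10 tested probes (vertical axis) on each of the 16 arrays, by hours after axotomy within each construct. Each point is an array and each bar the mean of a construct's arrays. Vamp2 and Slc17a6 are low on all 6 knockdown arrays, and Sv2b, Cplx1 and Cplx2 are low on all 4 overexpression arrays.

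The SNARE proteins themselves were Vamp2 (synaptobrevin 2) on the vesicle and Stx1a (syntaxin 1A) on the plasma membrane, since Snap25, their partner on the plasma membrane, was not above background. In control cultures the Vamp2 probe (ILMN_2424912) read 5877 and 6145 at 0 h, 6785 and 5998 at 3 h, and 6247 and 5998 at 12 h. In knockdown cultures it read 677 and 690.3 at 0 h, 743 and 780.2 at 3 h, and 718 and 685 at 12 h. In overexpression cultures it read 8200.2 at 0 h, 7894 and 8150 at 3 h, and 7277 at 12 h. Every knockdown array lay far below every control array, every overexpression array lay above every control array, and the levels by construct did not overlap. The means were 6175 ± 325 (SD, n = 6) in control, 715.7 ± 40.0 (SD, n = 6) in knockdown and 7880 ± 424 (SD, n = 4) in overexpression. The difference was -3.00 (95% interval -3.13 to -2.86, adjusted p = 2.54e-18) for knockdown and 0.34 (0.18 to 0.49, adjusted p = 0.000636) for overexpression.

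Stx1a, whose protein receives Vamp2 on the target membrane, was lower with both constructs. Its probe (ILMN_2700608) ran from 5298 to 6085 with a median of 5618 on the control arrays. It ran from 3520 to 3870.3 with a median of 3703 on the knockdown arrays. On the overexpression arrays it read 4120 at 0 h, 4377 and 3890 at 3 h, and 3729 at 12 h. The control arrays were separate from both other constructs, which overlapped each other. Stx1a fell by 0.59 in knockdown (95% interval -0.73 to -0.45, adjusted p = 2.22e-07) and by 0.48 in overexpression (-0.65 to -0.32, adjusted p = 2.42e-05). Overexpression and knockdown differed by 0.10 (-0.06 to 0.27, adjusted p = 0.262), which did not pass.

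Of the regulators of fusion, Syt1 was called in knockdown only, Cplx1 in overexpression only, and Cplx2 in both, in opposite directions. Syt1 (synaptotagmin 1, the calcium sensor of fast release; ILMN_2608416) ran from 1388 to 1695 with a median of 1514 on control arrays and from 2064 to 2818 with a median of 2362 on knockdown arrays. On the overexpression arrays it read 1547 at 0 h, 1484 and 1526 at 3 h, and 1171 at 12 h. All knockdown arrays were above all control arrays, whereas overexpression and control overlapped. Syt1 rose by 0.65 in knockdown (95% interval 0.48 to 0.81, adjusted p = 4.32e-07), and its difference in overexpression was -0.11 (-0.30 to 0.08, adjusted p = 0.316).

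Complexins 1 and 2 (Cplx1 and Cplx2) are small proteins that clamp and promote fusion of primed vesicles. The Cplx2 probe (ILMN_1238436) read 561 and 604 at 0 h, 781 and 654 at 3 h, and 683 and 702 at 12 h in control cultures. It read 779 and 894 at 0 h, 724 and 905 at 3 h, and 893 and 1106 at 12 h in knockdown cultures. It read 204 at 0 h, 184 and 149 at 3 h, and 116 at 12 h in overexpression cultures. Every overexpression array was below every array of the other constructs, and knockdown overlapped control only between 724 and 781. Cplx2 fell by 1.69 in overexpression (95% interval -1.88 to -1.50, adjusted p = 3.89e-12) and rose by 0.37 in knockdown (0.21 to 0.54, adjusted p = 0.00045).

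Cplx1 (ILMN_1226042) ran from 18500 to 24182 with a median of 22020 on control arrays and from 18914 to 24660 with a median of 21719 on knockdown arrays. The overexpression arrays read 11946 at 0 h, 13245 and 11562 at 3 h, and 11946 at 12 h. Control and knockdown covered nearly the same range, and overexpression lay below both. Cplx1 fell by 0.83 in overexpression (95% interval -0.98 to -0.67, adjusted p = 1.08e-08). Its difference in knockdown was 0.01, with an interval of -0.12 to 0.15 (adjusted p = 0.891).

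Sv2b, a glycoprotein of the vesicle membrane, had the largest fall of the members in overexpression. Its probe (ILMN_2714589) read 2695 and 2286 at 0 h, 3097 and 2342 at 3 h, and 2603 and 2758 at 12 h in control cultures. It ran from 2039 to 2729 with a median of 2221 on knockdown arrays. It read 447 at 0 h, 599 and 528 at 3 h, and 413 at 12 h in overexpression cultures. No overexpression array came near the lowest control or knockdown array, while knockdown and control overlapped. Sv2b fell by 2.32 in overexpression (95% interval -2.51 to -2.13, adjusted p = 1.62e-14), from a mean of 2630 ± 297 (SD, n = 6) in control to 496.8 ± 83.5 (SD, n = 4). Its difference in knockdown was -0.18 (-0.34 to -0.01, adjusted p = 0.0606). That value passed the test without control 0 h replicate 2 (adjusted p = 0.0337) or without control 3 h replicate 2 (adjusted p = 0.0118).

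Sv2b, Cplx1 and Cplx2 were lower together in overexpression, and their promoters are shown because HIF-1 binds DNA at a short core, ACGTG or GCGTG. RefSeq promoters of the assembly GRCm38.p6, 250 bases before to 50 after an annotated start, were given for 8 of the 10 members with 13 starts, and not for Vamp2 or Snap25. The core, searched on both strands, is in capitals. Shown are Cplx1 at chr5:108549978-108550277 (minus strand), Cplx2 at chr13:54302306-54302605 (plus strand), and the starts number 2 and 3 of the 4 of Sv2b at chr7:75308337-75308636 and chr7:75302560-75302859 (minus strand), counted from upstream. The 2 Sv2b starts were chosen because they hold a core, and its starts number 1 and 4 hold 0.
Cplx1: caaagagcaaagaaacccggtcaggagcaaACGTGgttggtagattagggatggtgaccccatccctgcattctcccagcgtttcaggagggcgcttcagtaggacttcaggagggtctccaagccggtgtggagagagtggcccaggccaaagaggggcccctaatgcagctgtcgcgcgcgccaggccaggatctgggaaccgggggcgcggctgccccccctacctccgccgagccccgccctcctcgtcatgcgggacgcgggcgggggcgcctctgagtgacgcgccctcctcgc
Cplx2: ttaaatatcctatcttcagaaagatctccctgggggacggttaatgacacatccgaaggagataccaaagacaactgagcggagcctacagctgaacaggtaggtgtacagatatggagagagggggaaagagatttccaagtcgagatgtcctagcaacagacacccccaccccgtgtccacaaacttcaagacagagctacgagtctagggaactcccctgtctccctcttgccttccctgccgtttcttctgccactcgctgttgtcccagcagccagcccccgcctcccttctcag
Sv2b start 2: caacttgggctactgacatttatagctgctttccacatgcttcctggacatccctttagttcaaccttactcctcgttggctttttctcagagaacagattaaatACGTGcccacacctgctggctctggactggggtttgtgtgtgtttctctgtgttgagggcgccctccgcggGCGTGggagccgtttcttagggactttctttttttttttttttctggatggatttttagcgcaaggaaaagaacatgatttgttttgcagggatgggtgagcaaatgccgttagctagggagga
Sv2b start 3: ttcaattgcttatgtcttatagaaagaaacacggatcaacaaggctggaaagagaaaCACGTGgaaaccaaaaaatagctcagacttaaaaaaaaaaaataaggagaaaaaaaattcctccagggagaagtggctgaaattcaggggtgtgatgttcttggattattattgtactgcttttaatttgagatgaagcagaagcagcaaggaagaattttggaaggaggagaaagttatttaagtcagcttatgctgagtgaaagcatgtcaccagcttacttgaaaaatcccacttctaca
The Cplx1 window holds 1 core, both Sv2b windows hold 2, and the Cplx2 window holds 0. In the window of Sv2b start number 3 the 2 matches are the overlapping strands of 1 palindrome, CACGTG. Over the 13 starts, 5 held a core, in Stx1a, Cplx1, Sv2b and Syp, and 43.8% of 32851 RefSeq mouse promoters of the same length hold one. Stx1a, with 2 cores, and Syp, with 1, were also called lower in overexpression and are not shown. The starts of Syt1, Slc17a6 and Syn1 hold 0. A match is a stretch of letters, and binding was not measured in these samples.

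Slc17a6, which packs glutamate into vesicles, was lowest in knockdown and highest in overexpression. Its probe (ILMN_2922321) read 15480.0 and 13993 at 0 h, 15240.0 and 16234 at 3 h, and 15909 and 15756 at 12 h in control cultures. It read 4529 and 4544 at 0 h, 6133 and 5792 at 3 h, and 5012 and 5489 at 12 h in knockdown cultures. In overexpression cultures it read 18287 at 0 h, 19628 and 17213 at 3 h, and 19628 at 12 h. The arrays of the 3 constructs did not overlap. Slc17a6 fell by 1.55 in knockdown (95% interval -1.69 to -1.41, adjusted p = 7.05e-14) and rose by 0.28 in overexpression (0.12 to 0.44, adjusted p = 0.0043).

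Syp and Syn1, abundant vesicle proteins often used to mark synapses, differed less. Syp (synaptophysin, a membrane protein that binds Vamp2; ILMN_2630182) averaged 8366 ± 747 (SD, n = 6) in control, 6649 ± 487 (SD, n = 6) in knockdown and 7279 ± 328 (SD, n = 4) in overexpression. Single arrays of the 3 constructs overlapped. Syp fell by 0.33 in knockdown (95% interval -0.47 to -0.18, adjusted p = 0.000361) and by 0.20 in overexpression (-0.37 to -0.04, adjusted p = 0.0373). The call in overexpression was lost when any of 6 arrays was left out. The adjusted p was then 0.0951 without control 0 h replicate 1, 0.0678 and 0.0503 without control 3 h replicates 1 and 2, and 0.0986 without control 12 h replicate 1. It was 0.0693 without overexpression 3 h replicate 2 and 0.290 without the overexpression array of 12 h.

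Syn1 (synapsin 1) tethers vesicles in the reserve pool and was read by 2 probes. ILMN_2762083 averaged 3181 ± 195 (SD, n = 6) in control, 3655 ± 195 (SD, n = 6) in knockdown and 3825 ± 163 (SD, n = 4) in overexpression. Its control arrays, up to 3324, were below every array of the other constructs. It rose by 0.20 in knockdown (95% interval 0.06 to 0.34, adjusted p = 0.0159) and by 0.27 in overexpression (0.11 to 0.43, adjusted p = 0.00612). The knockdown call was lost without control 0 h replicate 2 (adjusted p = 0.0562) or control 3 h replicate 1 (adjusted p = 0.0511). ILMN_1235133 overlapped between all constructs and passed neither test, at 0.19 (0.02 to 0.35, adjusted p = 0.0509) in knockdown and 0.10 (-0.08 to 0.29, adjusted p = 0.354) in overexpression. Its knockdown value passed without knockdown 0 h replicate 2 (0.27, adjusted p = 0.00385) or knockdown 3 h replicate 2 (0.22, adjusted p = 0.0307). The 2 probes of Syn1 thus had the same direction and fell on opposite sides of the threshold in both comparisons.

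**Figure D2:**
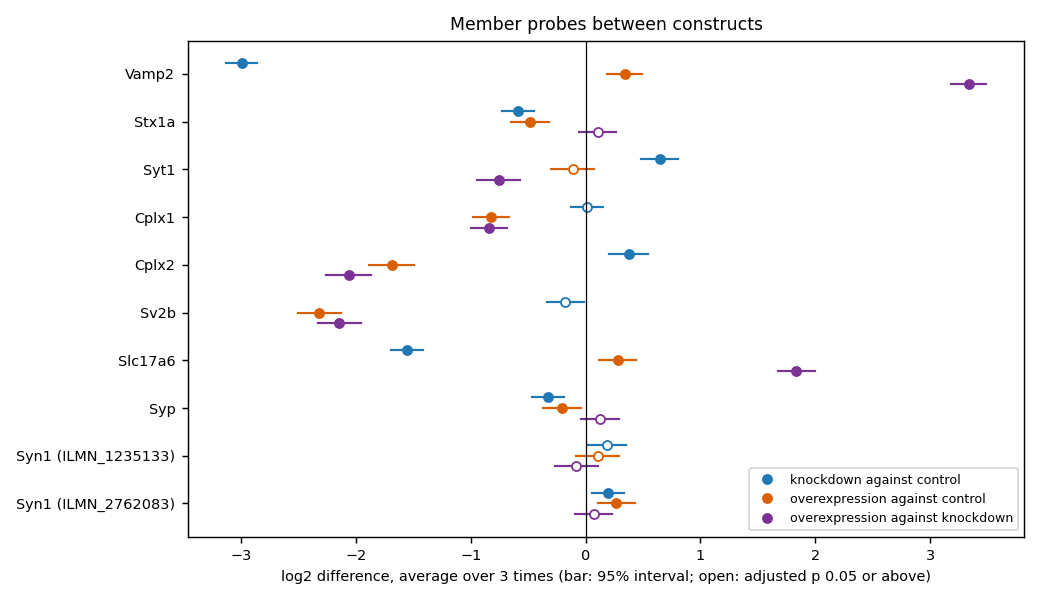
Log2 differences between constructs for the 10 tested probes (horizontal axis), averaged over the 3 times. Bars are 95% intervals, and open points did not pass the adjusted p of 0.05. Vamp2 and Slc17a6 stand at -3.00 and -1.55 in knockdown, and Sv2b and Cplx2 at -2.32 and -1.69 in overexpression.

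Overexpression and knockdown were each compared with the same control arrays, so their direct comparison is the difference of those comparisons. It is therefore wider wherever those had opposite signs, as for Vamp2, Slc17a6 and Cplx2, and by less for Syt1 and Cplx1. The mean deposited intensity in overexpression was 11.01 times that in knockdown for Vamp2 and 3.56 times for Slc17a6. The limma differences of overexpression from knockdown were 3.34 and 1.83 on the log2 scale (adjusted p = 2.20e-18 and 3.76e-14). These correspond to 10.1 and 3.56 times. Sv2b was lower by 2.15 and Cplx2 by 2.06 on the log2 scale, values coded -2.15 and -2.06 (adjusted p = 3.28e-14 and 9.74e-14). Cplx1 and Syt1 were also lower, at -0.84 (adjusted p = 5.23e-09) and -0.76 (adjusted p = 3.01e-07). Stx1a, Syp and both Syn1 probes did not pass, with differences of 0.10, 0.12 (95% interval -0.04 to 0.29), -0.08 (-0.27 to 0.11) and 0.07 (-0.09 to 0.23). With cyclic loess in place of quantile normalization, Stx1a (adjusted p = 0.0445) and Syp (adjusted p = 0.0267) also passed.

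Counted together, the members were called in shares near or above those of the array as a whole. With 10 chosen probes, a difference between these shares was not tested. In knockdown against control 7 of 10 probes were called, 3 higher and 4 lower, where 56.8% of all tested probes were called (27.9% higher, 28.9% lower). In overexpression against control 8 of 10 were called, 3 higher and 5 lower, where 53.3% of all were (24.3% higher, 29% lower). In overexpression against knockdown 6 of 10 were called, 2 higher and 4 lower, where 60.1% of all were (28.7% higher, 31.4% lower). The arrays of the 2 constructs did not overlap for 5, 7 and 6 of the 10 probes, against 36.2%, 39.9% and 45.4% of all probes. The median difference of the members was -0.08 in knockdown and -0.16 in overexpression, beside -0.02 and -0.03 over all probes.

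Because the members were chosen with earlier results of these data known, their ranks are a description only. Ordered from the lowest of 15086 probes, Vamp2 was number 5 and Slc17a6 number 147 in knockdown. In overexpression Sv2b was number 6 and Cplx2 number 77. The other members lay nearer the middle of the distribution than these. Cplx1 was at the 5.15 percentile in overexpression and at the 54.3 percentile in knockdown. Stx1a was at the 9.49 percentile in knockdown and the 13.1 in overexpression, and Syt1 at the 91.2 and the 39.4.

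**Figure D3:**
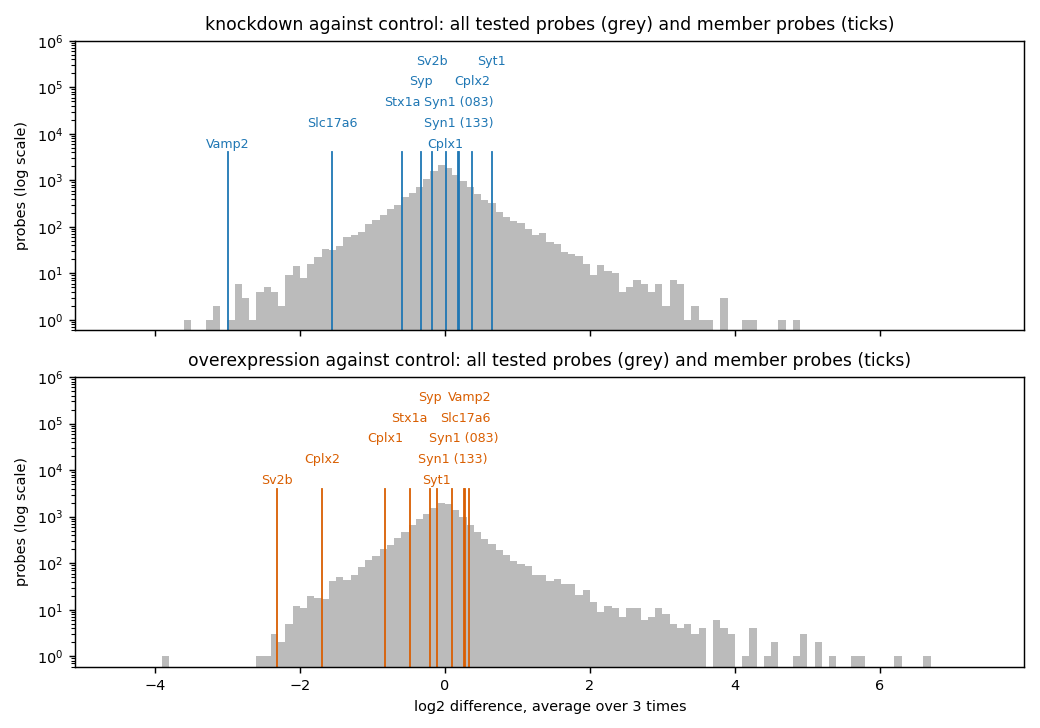
Distribution of the log2 difference over all 15086 tested probes (grey, number of probes on a log axis) for each construct against control, with each member probe as a vertical line. The 2 Syn1 probes are told apart by their last digits. Vamp2 in knockdown and Sv2b in overexpression lie at the low end, at -3.00 and -2.32.

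The members fell into groups with a like course over the 9 combinations of construct and time. No member was called after axotomy, so these courses mainly restate the differences between constructs. As a description of 9 group means that share arrays and normalization, Vamp2 and Slc17a6 correlated at 0.992 (Pearson). Each ran opposite to Syt1, at -0.942 and -0.964, though against control Syt1 was called in knockdown only. Sv2b, Cplx1 and Cplx2 correlated at 0.951 to 0.958 with each other. Syp and Stx1a correlated at 0.877, and the 2 Syn1 probes at 0.493. Outside the members, among 11151 genes, the courses most like that of Vamp2 were those of Sec22b (0.999), a SNARE of the secretory pathway, Nudt19 (0.997) and Lsm4 (0.997). Sec22b fell by 1.43 in knockdown (adjusted p = 5.62e-13) and differed by 0.16 in overexpression (adjusted p = 0.113). The courses most like that of Sv2b were those of Selenoh (0.993), Slc9a9 (0.992) and Nbl1 (0.991), which fell by 1.16, 1.33 and 1.86 in overexpression.

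The construct differences of the leading members were present at each time. Vamp2 in knockdown stood at -3.02 at 0 h, -2.96 at 3 h and -3.01 at 12 h, each called, where 36.7%, 40.6% and 38.6% of all probes were called. Slc17a6 in knockdown stood at -1.68, -1.39 and -1.58, and Stx1a at -0.61, -0.57 and -0.58, all called. In overexpression Sv2b stood at -2.31, -2.13 and -2.52, and Cplx1 at -0.65, -0.83 and -1.0, all called, where 32.7%, 36.4% and 32.1% of all probes were. Cplx2 in overexpression stood at -1.26, -1.75 and -2.05, all called, and 1 array carried the overexpression value at 0 h and at 12 h. In knockdown the Cplx2 rise was called at 0 h (0.48) and 12 h (0.48) and not at 3 h (0.17, adjusted p = 0.372). Leaving out 1 array could undo either call, with the rise as low as 0.38 at 0 h and 0.34 at 12 h. Syp in knockdown was called at 3 h (-0.46) and not at 0 h (-0.22) or 12 h (-0.29). The Vamp2 rise in overexpression was called at 0 h (0.44) and 3 h (0.33) and stood at 0.25 at 12 h (adjusted p = 0.184). Both of its single-time calls were lost when 1 array was left out, at 0 h without control replicate 1 (adjusted p = 0.0619). At 3 h this happened without control replicate 2 (adjusted p = 0.215) or overexpression replicate 1 (adjusted p = 0.0641) or 2 (adjusted p = 0.114).

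Axotomy was compared with uninjured cultures of the same construct, to ask whether the release machinery changes in the first 12 h after the cut. Averaged over constructs, 0 of the 10 probes were called by limma at 3 h, where 4 of 15086 probes (0.0265%) were, and 0 at 12 h, where 62 (0.411%) were. At an unadjusted p under 0.05 there were 3 of 10 members and 1084 of 15086 probes at 3 h, and 2 members and 1698 probes at 12 h. The largest differences at 3 h were 0.24 for Sv2b (95% interval 0.06 to 0.41, adjusted p = 0.543), 0.16 for Slc17a6 (0.01 to 0.31, adjusted p = 0.661) and 0.15 for Cplx1 (adjusted p = 0.695). At 12 h they were 0.25 for Syn1 probe ILMN_1235133 (0.06 to 0.44, adjusted p = 0.262) and 0.22 for Cplx1 (0.07 to 0.38, adjusted p = 0.218). With a variance prior that follows intensity, Cplx1 at 12 h passed (adjusted p = 0.0434).

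Within control cultures 0 of 10 members passed at 3 h, where 0% of all probes passed, and 0 at 12 h, where 0.0199% did. At an unadjusted p under 0.05 there were 0 members and 881 probes at 3 h, and 1 member and 978 probes at 12 h. That member was Cplx1, which read 19068 and 18500 uninjured, 22020 and 22020 at 3 h, and 24182 and 23767 at 12 h in control cultures. Both arrays of each later time were above both uninjured arrays, and the difference at 12 h was 0.35 (95% interval 0.11 to 0.59, adjusted p = 0.56). The intervals of Vamp2 in control cultures ran from -0.15 to 0.32 at 3 h and from -0.21 to 0.26 at 12 h, which is the size of change these arrays leave unresolved for it.

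Whether injury acted differently with a construct was tested as an interaction over both times. It was called for 0 of 10 members and 0% of all probes with either construct (limma's F test), and at an unadjusted p under 0.05 for 0 members and 849 probes with knockdown and 1 member and 877 probes with overexpression. The member was Cplx2 (adjusted p = 0.767). Its injury differences were 0.27 at 3 h and 0.23 at 12 h in control, and -0.22 and -0.57 in overexpression, so the interaction at 12 h was -0.79 (95% interval -1.29 to -0.29). The overexpression change at 12 h is 1 array against 1 array, so its spread is borrowed from the other groups.

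**Figure D4:**
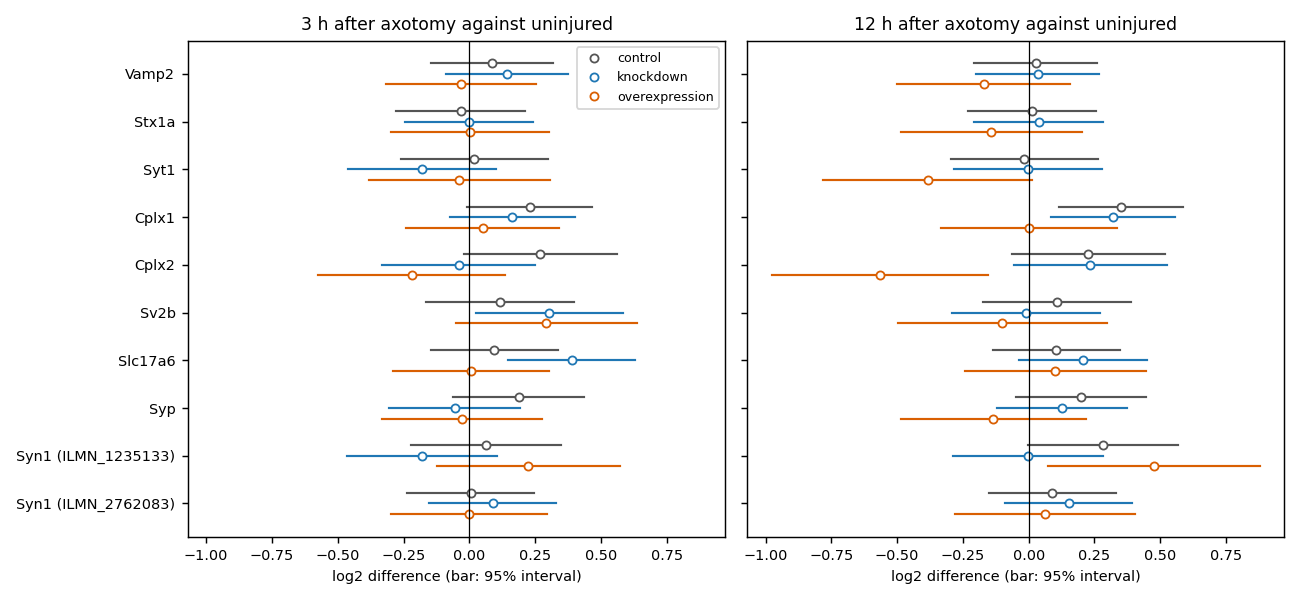
Log2 differences after axotomy (horizontal axis) at 3 h (left) and 12 h (right) against uninjured cultures of the same construct, for the 10 tested probes. Bars are 95% intervals. All points are open because 0 of 10 probes passed, and Cplx2 in overexpression at 12 h lies lowest, at -0.57.

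Other genes of the same machinery were described from lists, with 1 probe for each gene, the brightest. Over all 11151 genes, 58.9% were called in knockdown and 54.6% in overexpression, with medians of -0.002 and -0.02 (30.9% higher and 28% lower in knockdown, 25.5% and 29.1% in overexpression). Of 28 other SNARE genes tested, 8 rose and 11 fell in knockdown (median -0.01), and 7 rose and 12 fell in overexpression (median -0.01). The endosomal SNARE gene Vamp8 rose by 0.61 and by 1.47, Stx2 fell by 1.19 and by 0.96, and Vamp7, which serves late endosomes and neurite growth, fell by 1.02 in overexpression (adjusted p = 1.85e-08) and stood at -0.02 in knockdown. Of 20 SNARE regulators and chaperones, 5 rose and 5 fell in knockdown (median -0.05), and 4 rose and 4 fell in overexpression (median -0.03). Unc13b, a vesicle priming factor, fell by 0.98 in knockdown (adjusted p = 8.85e-11). Stxbp2, a syntaxin-binding protein, rose by 1.63 in overexpression (adjusted p = 1.36e-11).

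Among 21 other vesicle proteins, 8 rose and 8 fell in knockdown (median 0.01), and 8 rose and 7 fell in overexpression (median 0.07). The 2 other vesicular transporters named here did not fall with Slc17a6 in knockdown, and both rose in overexpression, as Slc17a6 did. Slc17a7 (VGLUT1) rose by 1.17 in knockdown (adjusted p = 3.81e-10) and by 0.85 in overexpression (adjusted p = 4.96e-07). Slc32a1, the transporter of GABA and glycine, rose by 1.08 in overexpression (adjusted p = 6.78e-10) and stood at 0.07 in knockdown. Syngr1, a relative of synaptophysin, fell by 1.46 and by 0.69, and Syt9, another synaptotagmin, fell by 1.48 in knockdown and rose by 0.25 in overexpression.

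Of 18 active zone and presynaptic adhesion genes, 1 rose and 9 fell in knockdown (median -0.20), and 5 rose and 10 fell in overexpression (median -0.28). Lin7b, a scaffold protein, fell by 1.56 and by 1.94. The adhesion gene Nrxn3 fell by 1.32 in knockdown and rose by 0.29 in overexpression. Of 28 vesicle endocytosis genes, 3 rose and 16 fell in knockdown (median -0.25), and 11 rose and 10 fell in overexpression (median 0.14). In knockdown Pacsin1, which binds dynamin, fell by 1.67 (adjusted p = 5.33e-14), and the clathrin adaptor subunits Ap2a2 and Ap2b1 fell by 1.25 and 1.11. In overexpression these 3 genes stood at -0.07, 0.13 and 0.16 and did not pass. Sh3gl2 (endophilin A1) rose by 0.68 in knockdown and fell by 1.33 in overexpression, and Amph (amphiphysin) fell by 1.06 in overexpression. After axotomy, 0 genes of these 5 lists passed at 3 h or at 12 h (limma), where 0.0359% and 0.448% of all genes did, and 5 and 11 of the 115 genes had an unadjusted p under 0.05, as did 817 and 1328 of all 11151 genes.

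**Figure D5:**
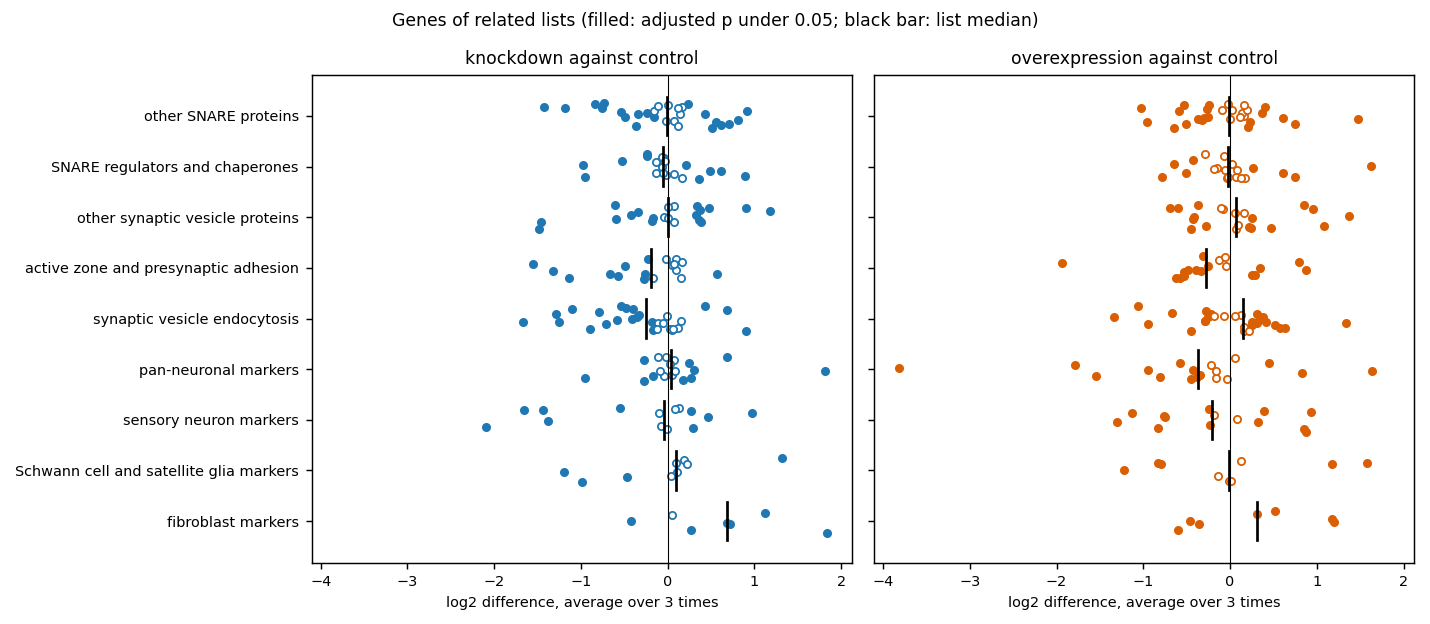
Log2 differences (horizontal axis) of single genes of 9 lists for each construct against control. Filled points passed the adjusted p of 0.05, and black bars are list medians. The endocytosis list has its median at -0.25 in knockdown and 0.14 in overexpression.

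Markers of the cultured cells moved between the constructs too. The summed intensity of 19 pan-neuronal marker genes ranged from 124200 to 133800 in control, 135300 to 143000 in knockdown and 94360 to 99350 in overexpression. Such sums of linear intensity weigh the brightest genes most. Of 18 tested, 6 rose and 4 fell in knockdown (median 0.04, range -0.95 to 1.81). In overexpression 3 rose and 10 fell (median -0.37, range -3.82 to 1.64). Stmn2, a neuronal growth protein, stood at 0.08 in knockdown and fell by 1.54 in overexpression, and Thy1 rose by 1.81 and fell by 3.82. Nefl, a neurofilament gene, was above 16 on 0 arrays, as was Snap25, though neurons are known to express both, and whether these probes detect their transcripts was not tested. For 16 sensory neuron genes the sum ranged from 42730 to 47000 in control, 24960 to 26810 in knockdown and 35170 to 40730 in overexpression, and Calca, a neuropeptide gene, fell by 2.09 in knockdown and by 0.25 in overexpression. Of 14 tested, 4 rose and 5 fell in knockdown (median -0.04, range -2.09 to 0.97), so Calca was the lowest of them. In overexpression 5 rose and 7 fell (median -0.21, range -1.30 to 0.93).

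Non-neuronal markers were dim or differed as well. The sum of 17 Schwann cell and satellite glia genes ranged from 18380 to 21420 in control, 8797 to 10610 in knockdown and 9261 to 10620 in overexpression, with 7 of the 17 never above 16, among them Fabp7. Of 9 tested, 1 rose and 3 fell in knockdown (median 0.09), and 2 rose and 3 fell in overexpression (median -0.01). For 12 fibroblast genes it ranged from 4333 to 4853, 6967 to 8697 and 3397 to 3814, with Col1a1, Col3a1, Lum and Postn never above 16, and Pdgfra rose by 1.84 in knockdown. Of 7 tested, 5 rose and 1 fell in knockdown (median 0.68), and 4 rose and 3 fell in overexpression (median 0.31). For 11 endothelial genes it ranged from 39.8 to 85.9, 114 to 163 and 82.5 to 134, and for 14 macrophage genes from 137 to 192, 132 to 197 and 296 to 352. Of 6 endothelial genes tested, 2 rose in knockdown and 1 in overexpression, and of 5 macrophage genes 1 rose and 1 fell in knockdown and 2 rose and 2 fell in overexpression. The part of cell composition in the differences of the vesicle and SNARE genes was not tested. Of these 6 lists, 2 pan-neuronal genes were called after axotomy, both at 12 h, where Thy1 rose by 0.70 (adjusted p = 0.00108) and Ncam1 by 0.54 (adjusted p = 0.0133).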

How the data were processed

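Intensity values of 25697 probes on 16 arrays were deposited in a series table. Per the labels' protocols the RNA was amplified and biotin-labelled, and the submitters' processing notes name GenomeStudio. The version and the authors' normalization were not given in the sources used here, but the deposited values look already quantile-normalized. Exact intensities recur across arrays, such as 22020 for Cplx1 on both control arrays of 3 h, and the array medians are nearly equal. As tabulated, deposited intensity values run from -21.7 to 40784.5, with 27.2% below 0 and a median of 13.3 to 13.5, so dim genes are read with little signal over background. Gene symbols came from a second deposited file, whose 32 columns of per-sample values match no label and were not used. By the RefSeq gene table of GRCm38.p6, 20733 symbols were current, 3872 were updated and 1092 were kept.

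With limma 3.58.1 in R 4.3.3, intensities were corrected with normexp (offset 50), quantile-normalized and log2-transformed, and a fold change understates that of dim genes. Probes above 16 on at least 2 arrays were kept (47.8% to 47.9% of probes were above 16 on each array). A fit of 9 group means had 7 residual and 12.6 prior degrees of freedom, so groups of 1 array borrow the spread of the others. The number of arrays limits the precision.

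The members and the 11 other gene lists were chosen with earlier results of these data known. Named are all member probes, up to 4 genes of each list with the smallest p for each construct against control, and the 3 genes most like Vamp2 and Sv2b in course. Some genes that the rule names are not reported here. Alternatives changed the background correction, normalization, filter, probe choice, prior, arrays in the fit and replicate block, and left out each array in turn. Because the deposited values look already normalized between arrays, leaving out normalization could change little. It gave 4210 probes higher and 4361 lower in knockdown, beside 4213 and 4360 in the main fit. Cyclic loess was likewise run on such values, so neither setting tests the normalization of the deposited values. Same-numbered samples were checked for shared deviations: over 21 pairs the correlation ran from -0.158 to 0.298 (median 0.0393), with 6 above 0.1, so the numbers were not taken to pair the samples.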

Additional observations from a re-analysis of the deposited data

Results flagged for a closer look

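The Syt1 probe (ILMN_2608416) read 1170.7 on the overexpression array of 12 h, below the other 3 overexpression arrays, which read 1484 to 1547. On the normalized log2 scale its gap to the nearest of them was 0.851 of the range of the 4 arrays, past Dixon's 95% limit for 4 values. Of 30 sets of arrays tested (10 probes in 3 constructs), 1 was marked in this way, and chance marks about 1 in 20. The array is the single one of its construct and time, so a difference of time and one of that array cannot be told apart.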

How the results depend on the processing

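Over 26 alternative settings, 754 of 777 values of the members in the 3 construct comparisons kept their side of the threshold and 23 changed sides. The sign turned for 5 values of 3 differences, 0 of them called. These were Cplx1 in knockdown (-0.0282 with cyclic loess, -0.00892 without knockdown 3 h replicate 2), Syt1 in overexpression (0.00173 without the 12 h array), and Syn1 probe ILMN_1235133 in overexpression against knockdown (0.00553 with cyclic loess, 0.067 without the overexpression array of 0 h). The differences ranged from -3.11 to -2.97 for Vamp2 and -1.59 to -1.53 for Slc17a6 in knockdown, and from -2.48 to -2.22 for Sv2b, -2.07 to -1.51 for Cplx2 and -0.91 to -0.74 for Cplx1 in overexpression. Syp in overexpression was lost with cyclic loess (adjusted p = 0.114) and a normexp offset of 16 (0.0649), beside the 6 arrays named above. In knockdown, Sv2b passed with cyclic loess (0.0332) and with an intensity trend in the prior (0.0392), and Syn1 probe ILMN_1235133 with that trend (0.0168) and with 1 row per gene (0.0457). A replicate block, which the numbers do not bear out, also took both past the threshold (adjusted p = 0.0492 and 0.0405), for 4 members higher and 5 lower in knockdown, with 8668 probes called in place of 8573. No other call of a member between constructs changed with the block. With cyclic loess 4 members, in place of 2, were higher in overexpression than in knockdown, and with the trend 1 member, in place of 0, was higher at 12 h after injury. Leaving out 1 array gave 2 to 4 members higher and 4 to 5 lower in knockdown, and 3 higher and 4 to 5 lower in overexpression.

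Counts of all probes called after injury were small and moved with the settings, and the cause was not tested. At 3 h, 4 probes became 19 with values floored at 16, 2 with the offset of 16 and 3 to 9 without 1 array. At 12 h, 62 became 31, 7 and 13 to 72 in the same order. Within control cultures, 0 at 3 h became 17 when floored, 1 with the trend and 0 to 1 without 1 array. There, 3 at 12 h became 5 when floored, 9 with the trend, 0 with the offset of 16, 1 with control arrays alone and 0 to 11 without 1 array. Interactions went from 0 to 3 with knockdown and 88 with overexpression when floored, and to 0 to 1 and 0 to 2 without 1 array. Signal over background limits Snap25, Nefl, Hif1a and most non-neuronal markers, and 1 array at 0 h and at 12 h limits overexpression.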
